A study of Mus musculus with 30 samples.

Results

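Crispld2, Inmt, Clip3, Rspo1, P2ry1, Slc6a13, Spock2, Pla2g2d, Fxyd1 and Cyp2e1 are 10 mouse genes whose transcripts were among the most reduced in crushed sciatic nerve. The first 7 were taken from the strongest of the falls after crush that passed a significance threshold in nucleolin immunoprecipitates. Pla2g2d, Fxyd1 and Cyp2e1 were taken from the strongest falls in input RNA. Those contrasts are therefore given for those genes as a description. The deposited tables used here held 14 transcripts of these 10 genes, of 20423 transcripts and 14453 gene symbols in all. Each gene is followed below by its most abundant transcript, which is protein coding for all 10. The other 4 are a processed transcript of Rspo1, 2 retained-intron transcripts of Slc6a13 and a shorter coding transcript of Fxyd1.

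The samples were axoplasm, a detergent-free lysate of ground mouse sciatic nerve enriched for the contents of axons. Each sample pooled 10 nerves, from naive mice or from mice whose nerve had been crushed at mid-thigh 7 days earlier; no mouse strain, sex or age was used here. From each condition there were input libraries, immunoprecipitates (IPs) made with antibodies to the RNA-binding proteins nucleolin and PTBP1, and blocked IPs, in which the antibody had first met its blocking peptide and which measure background. That gave 10 groups of 3 libraries, 30 in all, which the submitters call independent biological repeats. Input and IP of a repeat were drawn from the same lysate, so a fall seen in both kinds of library is not a repeat in new animals. The extract is not pure axoplasm: markers of Schwann cells, connective tissue and fat were measured in it, as given further on. Bulk counts do not assign a transcript to a cell, and fewer cells of a type cannot be told apart here from less RNA per cell.

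A peripheral nerve is built of axons, the Schwann cells that wrap them, and connective tissue in layers: endoneurium around the fibers, perineurium as a barrier around each fascicle, and epineurium, which carries fibroblasts, vessels and fat. After a crush, axons beyond the lesion degenerate, Schwann cells leave the myelinating state, macrophages enter and the barrier opens. The 10 genes belong to different families. Rspo1 encodes R-spondin 1, a secreted amplifier of Wnt signalling. Crispld2 (a cysteine-rich secreted protein with LCCL domains) and Spock2 (testican 2, a proteoglycan) are secreted or matrix proteins, and Pla2g2d is a secreted phospholipase A2. P2ry1 is a G protein-coupled receptor for ADP, Slc6a13 a transporter of GABA and taurine (GAT2), and Fxyd1 (phospholemman) a small membrane protein that regulates the sodium pump. Inmt methylates indoleamines, Cyp2e1 is a microsomal cytochrome P450, and Clip3 is a CAP-Gly protein of the trans-Golgi network and of microtubules.

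Because these transcripts fell together, the sequence before each start site was examined for shared letters. The windows were the 250 bases before the RefSeq start of each gene (build GRCm38.p6), searched on both strands for the TATA box (TATAAA), the CCAAT box (CCAAT), the GC box (GGGCGG), the E-box (CACGTG), the AP-1 site (TGANTCA), the TCF/LEF site (ATCAAAG) and the D-box (TTATGTAA). For Fxyd1 the RefSeq start lies 803 bases from the start of the transcript followed here. Its window therefore falls inside the span of that transcript and not before it. The windows of 3 genes are shown because RefSeq and the gene annotation place their start at the same base, and because their windows differ in composition. Capitals mark the matches. All are read 5′ to 3′ on the plus strand, from chr8:119992188-119992437, chr4:124986180-124986429 and chr4:138775485-138775734.
Crispld2: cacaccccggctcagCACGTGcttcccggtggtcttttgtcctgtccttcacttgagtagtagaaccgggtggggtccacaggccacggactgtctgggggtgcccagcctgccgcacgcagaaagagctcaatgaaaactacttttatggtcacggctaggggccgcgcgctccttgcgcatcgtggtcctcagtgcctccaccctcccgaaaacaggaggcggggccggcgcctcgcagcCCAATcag
Rspo1: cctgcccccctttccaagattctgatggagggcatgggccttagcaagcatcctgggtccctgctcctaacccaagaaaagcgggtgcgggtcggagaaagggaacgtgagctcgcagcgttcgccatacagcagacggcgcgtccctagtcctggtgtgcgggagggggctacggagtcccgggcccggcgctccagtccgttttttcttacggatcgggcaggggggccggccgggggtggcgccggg
Pla2g2d: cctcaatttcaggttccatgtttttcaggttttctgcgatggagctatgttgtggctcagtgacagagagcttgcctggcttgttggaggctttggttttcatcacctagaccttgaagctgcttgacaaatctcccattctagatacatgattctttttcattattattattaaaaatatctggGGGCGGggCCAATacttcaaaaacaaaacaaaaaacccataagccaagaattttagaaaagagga
The Crispld2 window holds an E-box and a CCAAT match, the Pla2g2d window a GC box followed by a CCAAT match, and the Rspo1 window no match to the 7 motifs. No motif was common to the 10 windows. The CCAAT box was found in 3 of 10 (33.9% of 32851 promoter windows), the GC box in 3 (32.7%), the TATA box in 2, Inmt and Cyp2e1 (12.4%), and the E-box in Crispld2 alone (6.02%). AP-1, TCF/LEF and D-box letters were in none of the 10, against 6.75%, 3.21% and 0.819% of all windows. Base composition ranged from 39.6% G and C in Pla2g2d to 70.8% in P2ry1, around a median of 52.4% for all windows. The ratio of observed to expected CpG ran from 0 in Inmt to 0.799 in Rspo1, with 0.373 as the median of all windows.

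In naive input the 10 transcripts covered a wide range of levels. Levels are given as CPM, read counts scaled to library size. Per kilobase of transcript, Cyp2e1 was highest at 150.3 ± 11.6 CPM per kb (SD, n = 3), followed by Inmt at 116 ± 27 and Crispld2 at 91.6 ± 17.3. The lowest were Slc6a13 at 10.9 ± 2.78, Pla2g2d at 9 ± 2.02 and Spock2 at 6.92 ± 1.03. Fxyd1 (57.4 ± 12.5), Clip3 (41.6 ± 8.10), Rspo1 (39.4 ± 5.70) and P2ry1 (14.7 ± 1.13) lay between. Clip3 and Rspo1 differed by less than the SD of either, as did Slc6a13 and Pla2g2d, while Inmt and Crispld2 differed by less than the SD of Inmt and by more than that of Crispld2. CPM were computed from the deposited counts with TMM-scaled library sizes, and below they compare one transcript across libraries only.

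The first question was what the crush did to these transcripts in the whole extract. In input, 10 of 10 fell at an adjusted p under 0.05 (edgeR, quasi-likelihood fit, p adjusted by Benjamini-Hochberg over 14095 transcripts), where 13.4% of all transcripts tested fell. For the 7 genes not chosen from input the count was 7 of 7. In each of those 7 the 3 injured libraries lay below the 3 naive libraries, which was true of 21.9% of all transcripts. The 3 genes chosen from input were apart in the same way, as a description of that choice. The median log2 fold change was -3.59 over those 7 genes, and 0.0017 over all transcripts tested. Of 3924 transcripts called in either direction 2037 rose and 1887 fell. With library totals in place of TMM scaling the median of all transcripts moved to -0.26 and the calls to 846 higher and 1481 lower, and the 10 were still called lower. The input table lists only transcripts with at least 5 counts in injured input 2 and in injured input 3, so a transcript lost entirely after crush would not be in it.

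Among the secreted and matrix proteins, Rspo1 stood at 79.1, 77.3 and 60.2 CPM in naive input and at 6.68, 6.78 and 4.72 CPM in injured input. The replicates of each condition were close to each other and the conditions far apart. Its log2 fold change was -3.59 ± 0.31 (standard error, adjusted p = 9.82e-06), a 12-fold fall in the fit. Rspo1 (ENSMUST00000030687, chr4:124986430-125009099, plus strand, 6 exons, GRCm38) signals through Lgr receptors. Crispld2 (ENSMUST00000132583, chr8:119992438-120052793, plus strand, 15 exons) read 299.5, 430.3 and 419 CPM in naive and 21.5, 27.9 and 34.5 CPM in injured input. The highest injured library was under every naive one by a wide margin. Its log2 fold change was -3.76 ± 0.27 (standard error, adjusted p = 4.01e-06).

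Spock2 (ENSMUST00000121820, chr10:60106219-60135198, plus strand, 11 exons) had the smallest fall of the 10 in input. It read 42.5, 33.1 and 33.2 CPM in naive and 17.3, 3.71 and 3.30 CPM in injured input, the log2 change being -2.25 ± 0.56 (standard error, adjusted p = 0.0104). Injured input 1 was high among its group, and it is also the shallowest library, with 7536033 counts of which the transcript Yam1 took 38.1%; the part of depth in that value was not tested. Without that library the change was -3.45 (adjusted p = 0.000119), and without any other single input it lay between -1.86 and -2.32 with adjusted p up to 0.0458. Pla2g2d (ENSMUST00000030528, chr4:138775735-138782046, plus strand, 4 exons), a phospholipase of resting dendritic cells and lymphoid tissue, was chosen for its fall in input: 15.1, 19.6 and 23.8 CPM in naive against 0.247, 0.404 and 0.767 CPM in injured libraries. The injured values rest on 1, 5 and 13 counts. Its fitted log2 difference there was -5.18, the largest of the 10.

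Of the membrane proteins, P2ry1 (ENSMUST00000029331, chr3:61002795-61008979, plus strand, 2 exons) read 53.8, 62.1 and 55.4 CPM in naive and 3.96, 6.54 and 8.32 CPM in injured input. Its naive libraries were close to each other, and its log2 fold change was -3.15 ± 0.34 (standard error, adjusted p = 4.32e-05). An annotated gene on the opposite strand, Gm37035, covers 992 of its 3886 exonic bases (25.5%), and reads of the pair cannot be told apart without strand; no other member shares exonic bases with another annotated gene. Slc6a13 (ENSMUST00000064580, chr6:121300227-121337733, plus strand, 15 exons) stood at 17.7, 25.4 and 29.9 CPM in naive and 1.48, 0.404 and 2.18 CPM in injured input. The injured libraries held 6, 5 and 37 counts, so the low level is known only coarsely. Its log2 fold change was -4.15 ± 0.58 (standard error, adjusted p = 0.000289). Fxyd1 (ENSMUST00000039909, chr7:31051681-31055656, minus strand, 8 exons), chosen from input, read 42.3, 37.4 and 27.1 CPM in naive and 1.24, 0.646 and 1.53 CPM in injured input, a fitted log2 difference of -4.96.

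Of the intracellular proteins, Inmt (ENSMUST00000003569, chr6:55170626-55175043, minus strand, 3 exons) had 96.2, 125 and 154 CPM in naive and 3.71, 7.02 and 7.43 CPM in injured input. It fell by the most of the 7 genes not chosen from input, the log2 change being -4.32 ± 0.33 (standard error, adjusted p = 5.18e-06). Clip3 (ENSMUST00000014065, chr7:30291753-30308367, plus strand, 14 exons) had 116, 129 and 167 CPM in naive and 5.93, 12.8 and 17.4 CPM in injured input. The injured libraries of Clip3 were less even than the naive ones, and its log2 fold change was -3.47 ± 0.36 (standard error, adjusted p = 3.74e-05). Cyp2e1 (ENSMUST00000026552, chr7:140763739-140774981, plus strand, 9 exons), chosen from input, read 294, 252 and 280.4 CPM in naive and 12.9, 5.65 and 9.14 CPM in injured input, a fitted log2 difference of -4.94. No injured library came near a naive one.

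**Figure D1:**
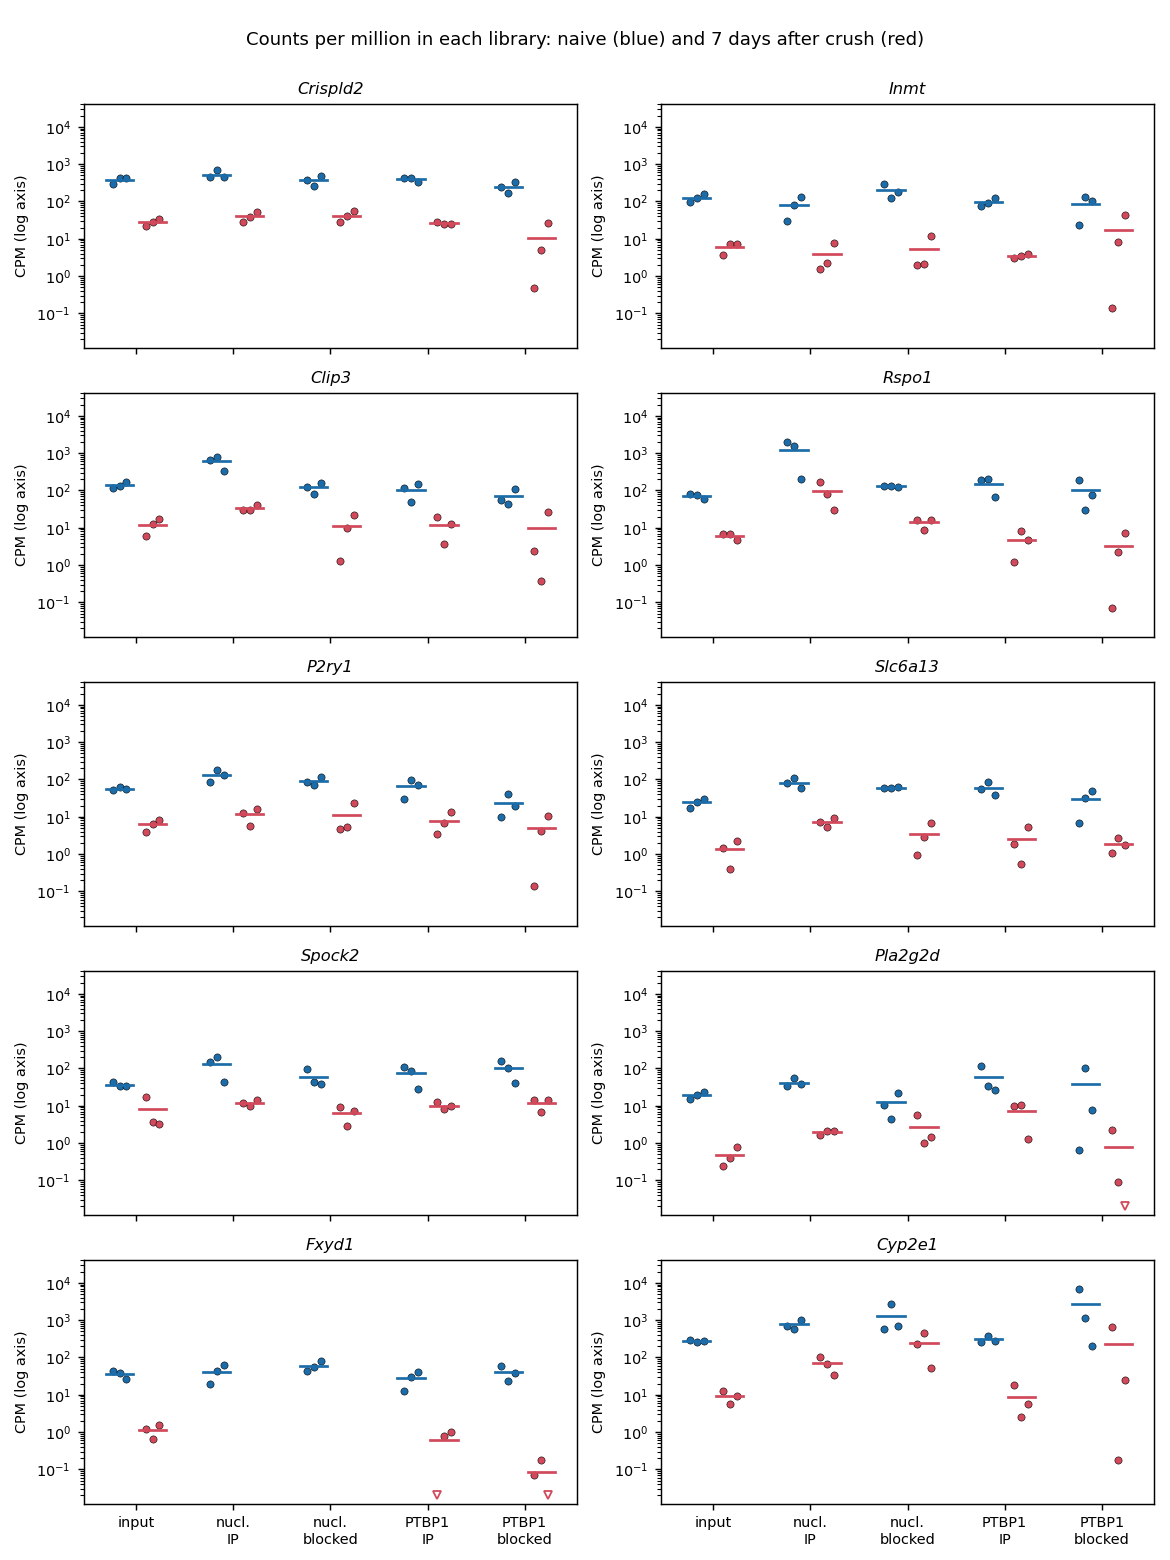
CPM of each transcript on a log axis in every library, by kind of library (horizontal axis; nucl. stands for nucleolin); blue points are naive and red points injured libraries, short lines the means of 3, open triangles libraries with 0 counts drawn at the bottom of the axis, and Fxyd1 has no injured nucleolin points because it was not analysed there. In input and in both IPs the injured points lie below the naive points of the same kind for all transcripts shown, and in blocked PTBP1 libraries the points of Inmt, P2ry1, Pla2g2d and Cyp2e1 overlap.

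In the nucleolin IP 9 of the 10 transcripts could be followed across the crush, since the Fxyd1 transcript was not in the table used here for injured nerve. Only transcripts with at least 5 counts in each library of injured nucleolin IP or of its blocked IP were listed there. The 9 followed are therefore those that passed that limit in injured nerve. The 7 chosen from this contrast were called by construction, at ranks 1 and 3 to 8 of the 51 transcripts that fell (0.431% of 11840 transcripts tested). Among those 51 called transcripts, ranked by size, the member nearest the limit was Spock2 at a log2 difference of -3.46. Hlf (-4.22), Car3 (-3.37) and Fmod (-3.34) were among the first 10 of that ranking but are not members, and Shisa3 (-3.32) came next. By size of fall among all 11840 transcripts, called or not, the 7 chosen genes stood between ranks 16 (Inmt) and 96 (Spock2). In input the 3 chosen genes ranked 4 to 6 among the falls, after transcripts of Pmp22, Hba-a1 and Gm1992, and Lims2 (-4.89) came just after Cyp2e1 (-4.94). These values describe the choice and support nothing.

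In naive nucleolin IP Rspo1 had 1949.9, 1536 and 198 CPM against 174, 80 and 30.8 CPM in injured IP. Library 3 was the low one on both sides, and its naive value was only slightly above the highest injured value. Clip3 had 656, 808 and 331 CPM in naive and 29.7, 29.1 and 41.5 CPM in injured IP, and Crispld2 439.6, 688 and 451 against 27.9, 38 and 53 CPM. Both had injured groups well under the naive ones. Inmt had 29.4, 79.7 and 128 CPM in naive and 1.59, 2.20 and 7.91 CPM in injured IP. P2ry1 had 88, 178 and 129 against 12.9, 5.72 and 16.4 CPM. In Inmt the lowest naive library was still above the highest injured one, as it was in P2ry1. Slc6a13 had 78.5, 106 and 57.7 against 7.27, 5.31 and 9.13 CPM, and Spock2 153, 200.1 and 42.9 against 11.9, 9.55 and 14.6 CPM. Spock2 was lowest in naive library 3, the same library in which Rspo1 and Clip3 were lowest.

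Pla2g2d and Cyp2e1 were not chosen from the nucleolin IP and so could be tested there. Pla2g2d read 34.2, 54.1 and 37.8 CPM in naive and 1.67, 2.12 and 2.16 CPM in injured IP, the log2 change being -4.40 ± 1.04 (standard error, adjusted p = 0.0804). Cyp2e1 read 707, 595 and 1014 CPM in naive and 106, 67.6 and 33.7 CPM in injured IP, with -3.48 ± 0.81 (standard error, adjusted p = 0.0782). The groups did not overlap for either, which held for 14% of transcripts in that direction, but neither passed the adjusted threshold by edgeR. In this contrast the deviations of libraries with the same repeat number were correlated (0.332, 0.119 and 0.555). No label says what a number shares between naive and injured nerves, so the block is an alternative only. With the repeat as a block Cyp2e1 passed (-3.75 on the log2 scale, adjusted p = 0.0319) and Pla2g2d did not (-4.44, adjusted p = 0.0563), while the number of transcripts called rose from 98 to 334. DESeq2 called both, where it called 400 of 11719 transcripts lower. So did edgeR on the 6 nucleolin IP libraries alone, where 267 of 11625 transcripts were called lower. Leaving out any one of the 6 libraries cut the 7 called members to Crispld2 alone, except that without naive library 3 Rspo1 and Spock2 were called as well.

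The blocked nucleolin IP asks whether the same transcripts were lower after crush in the background precipitate. There, 5 of 9 fell by edgeR's test, where 0.819% of all transcripts fell: Crispld2 (log2 fold change -3.18, adjusted p = 0.00798), Inmt (-5.26, 0.0241), Slc6a13 (-4.06, 0.0253), Clip3 (-3.47, 0.0419) and Spock2 (-3.21, 0.0419). Inmt had also been named from this contrast in earlier results, so its value and its place in the 5 of 9 are a description and no support. The genes chosen from the nucleolin IP were chosen in the same fit, which shares its estimate of the spread with this contrast. Rspo1 (-3.21, adjusted p = 0.0552) and P2ry1 (-3.03, 0.0521) came close to the threshold, and Cyp2e1 (-2.43, 0.122) and Pla2g2d (-2.15, 0.229) did not pass it. In 8 of 9, with Inmt again as a description, the injured libraries lay below the naive ones (11.6% of all transcripts), Pla2g2d being the exception. Inmt had 300.0, 122 and 184 CPM in naive and 1.99, 2.16 and 11.6 CPM in injured blocked IP. In naive nerve these values ran above those of the nucleolin IP on average (202 against 79.2 CPM), though the groups overlapped. edgeR on the 6 blocked libraries alone called no member, and DESeq2 called all 9, where it called 835 of 11719 transcripts lower. Without injured blocked library 2 none was called, and without injured library 1, naive library 1 or naive library 2 between 2 and 3 were.

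With PTBP1 the libraries were less even. In the PTBP1 IP none of the 10 was called by edgeR (adjusted p from 0.255 to 0.603, over 14540 transcripts, of which 1 was called, higher). Yet 10 of 10 had every injured library below every naive library, against 13.8% of all transcripts, and 9 of 10 had an unadjusted p under 0.05, against 5.36% of transcripts lower at that level. Fitted log2 fold changes ran from -2.89 in Spock2 to -5.47 in Fxyd1. Crispld2 read 431, 426 and 325 CPM in naive and 27.6, 24.4 and 25 CPM in injured PTBP1 IP, the log2 change being -3.94 ± 1.01 (standard error, adjusted p = 0.255). Its 3 injured libraries were nearly equal. Inmt read 76.7, 90 and 123 against 3.04, 3.48 and 3.94 CPM, the log2 change being -4.79 ± 1.42 (standard error, adjusted p = 0.265). In both, the replicates lay close together. Rspo1 read 191, 201 and 66.9 against 1.18, 8.38 and 4.81 CPM, the log2 change being -5.00 ± 1.36 (standard error, adjusted p = 0.255). Fxyd1 read 12.8, 30 and 40 against 0, 0.803 and 1.03 CPM, the injured side resting on 0, 9 and 27 counts. Only transcripts with at least 5 counts in all 3 libraries of some PTBP1 group were listed. Fxyd1 met that limit in naive groups alone, so its place in the counts above is a description. DESeq2 called 6 of the 10 (Crispld2, Inmt, Rspo1, Slc6a13, Spock2 and Fxyd1), where it called 329 of 14303 transcripts lower. edgeR on the 6 PTBP1 IP libraries alone called Crispld2 and Inmt, where 3 of 13598 transcripts were called lower.

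In the blocked PTBP1 IP none of the 10 was called by edgeR either (adjusted p from 0.103 to 0.335), where 0.00688% of transcripts fell. There 7 of 10 had an unadjusted p under 0.05 (10.9% of transcripts lower at that level), and 6 of 10 had groups apart (11.3%). Inmt, P2ry1, Pla2g2d and Cyp2e1 overlapped. All 10 fitted changes were below 0, where 50.1% of all transcripts were. Fxyd1 had 1226, 426 and 935 counts in naive and 1, 2 and 0 in injured blocked libraries. That made it 684.5-fold higher in naive libraries after scaling for depth, with a 95% interval from 234 to 3322 that covers counting error only. Since Fxyd1 passed the limit on counts through naive groups alone, this ratio and its place in the counts above are a description. The others lay between -2.27 (P2ry1) and -5.58 (Pla2g2d) on the log2 scale. DESeq2 called 6 of the 10 there (Crispld2, Rspo1, Slc6a13, Spock2, Pla2g2d and Fxyd1), where it called 1242 of 14303 transcripts lower. Without injured blocked library 3 edgeR called Crispld2, where 14 of 14883 transcripts were called lower. The retained-intron transcript of Slc6a13 ENSMUST00000142021 differed from the main one, with 485 counts in injured blocked library 1, 558 in naive IP library 1 and at most 58 in every other PTBP1 library. DESeq2 called this transcript higher after crush in the blocked IP, where it called 1275 of 14303 transcripts higher. The injured and naive groups of this transcript overlapped there.

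**Figure D2:**
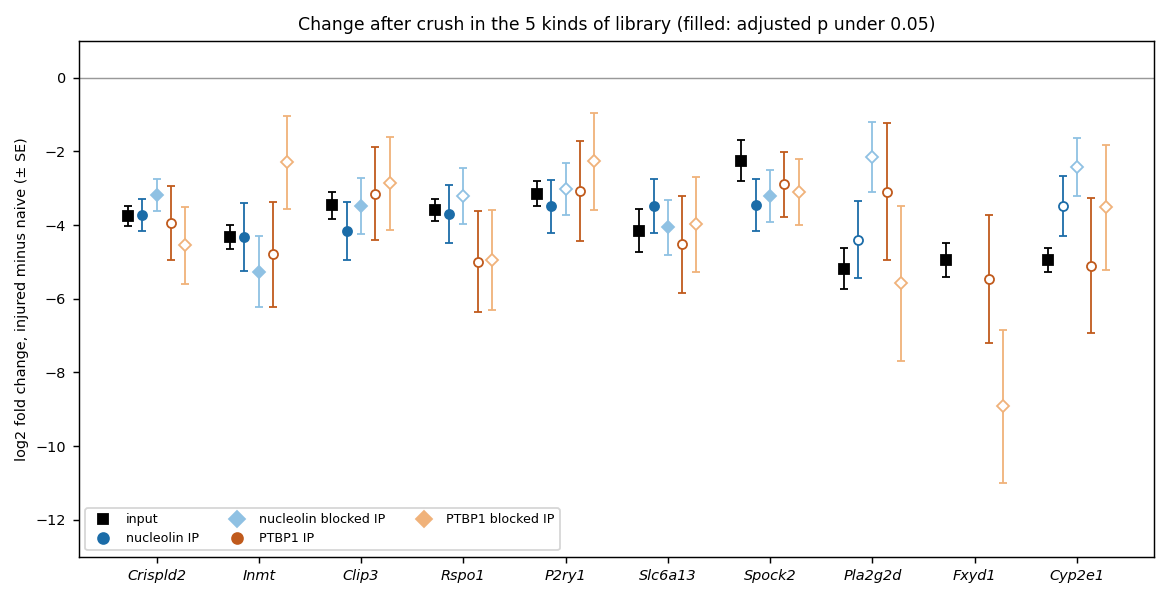
Fitted log2 fold change, injured minus naive, with its standard error (vertical axis) for each of the 10 transcripts in the 5 kinds of library; filled symbols passed an adjusted p of 0.05 by edgeR and open ones did not. All symbols lie below 0, the input values (squares) carry the shortest error bars, and the blocked PTBP1 value of Fxyd1 rests on 3 injured counts.

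The antibodies were used to ask which RNAs bind nucleolin or PTBP1, so the IP was set against its blocked IP. No member was called in any of these comparisons by edgeR, nor was any transcript of the tables (0 of 11840 and 0 of 14540 in each). This fit treated IP and blocked libraries of the same repeat number as unrelated, although input and IP of a repeat shared a lysate. With the repeat as a block edgeR again called 0 transcripts in each comparison. The edgeR values below are from the fit without a block. At an unadjusted p under 0.05 nucleolin IP was above blocked IP for Rspo1 and Clip3 in both conditions, where 8.32% of all transcripts were higher and 3.69% lower in naive nerve, and 5.41% higher and 1.08% lower in injured nerve. Cyp2e1 was below blocked IP at that level in injured nerve, with nucleolin and with PTBP1, and the most abundant transcript of no other member reached it. The retained-intron transcript of Slc6a13 ENSMUST00000142021 was above blocked IP in naive nerve with PTBP1 (edgeR, unadjusted p = 0.0202, adjusted p = 0.279). It held 558, 58 and 31 counts in IP and 0, 0 and 1 in blocked libraries. With PTBP1 11.5% of all transcripts were higher and 1.51% lower in naive nerve, and 10.8% higher and 1.71% lower in injured nerve. DESeq2 called 1 of 11 member transcripts higher in naive nerve with PTBP1, where it called 1047 of 14303 transcripts higher. Rspo1 had the largest fitted nucleolin ratio of the 9 measured. Its naive IP libraries held 21058, 16175 and 2685 counts and its blocked libraries 2294, 2323 and 2152. The first 2 IP libraries were far above the blocked ones and the last only a little. Its log2 fold change over blocked IP was 3.24 ± 0.76 (standard error, adjusted p = 0.0864) in naive and 2.77 ± 0.75 (standard error, adjusted p = 0.221) in injured nerve. DESeq2 called both (adjusted p = 0.000712 and 0.0156), where it called 693 (naive) and 316 (injured) of 11719 transcripts higher. Without naive IP library 3 edgeR called the naive value (3.75, adjusted p = 0.0158), where 125 of 11852 transcripts were called higher. A processed transcript of Rspo1 (ENSMUST00000140698) was listed only in the naive nucleolin table of those used, with 66, 34 and 5 counts in IP and 0, 0 and 8 in blocked libraries.

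Clip3 was the other transcript with every nucleolin IP library above every blocked library in both conditions. In naive nerve it read 656, 808 and 331 CPM in nucleolin IP and 127, 82.3 and 158 CPM in blocked IP, and in injured nerve 29.7, 29.1 and 41.5 against 1.27, 10.1 and 21.7 CPM. The fitted difference was 2.29 ± 0.72 (standard error, adjusted p = 0.187) in naive and 1.60 ± 0.71 (standard error, adjusted p = 0.719) in injured nerve, and DESeq2 called the naive one (adjusted p = 0.0253). Nucleolin IP was also above blocked IP without overlap for Pla2g2d in naive nerve and for Spock2 in injured nerve. Groups that did not overlap in that direction made up 3 of 9 members in each condition, against 12.3% (naive) and 12% (injured) of all transcripts. Fxyd1, measured with nucleolin in naive nerve only, read 19, 44 and 61.4 CPM in IP and 44.5, 54.5 and 78.1 CPM in blocked IP, with overlapping groups. Those comparisons share libraries with the contrast that chose 7 of the genes.

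Cyp2e1 had its highest values in blocked libraries. Its naive blocked PTBP1 libraries held 134737, 20662 and 5089 counts and its injured ones 9707, 2 and 621. Within a group of 3 these values differ far more than the condition means do. PTBP1 IP against blocked IP gave -3.12 ± 1.67 (standard error, adjusted p = 0.476) in naive and -4.71 ± 1.8 (standard error, adjusted p = 0.273) in injured nerve, with overlapping groups. In naive blocked nucleolin IP library 2 alone reached 2712 CPM, against 582 and 679 in libraries 1 and 3. For the most abundant transcripts of the remaining members PTBP1 IP and blocked IP overlapped in both conditions.

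**Figure D3:**
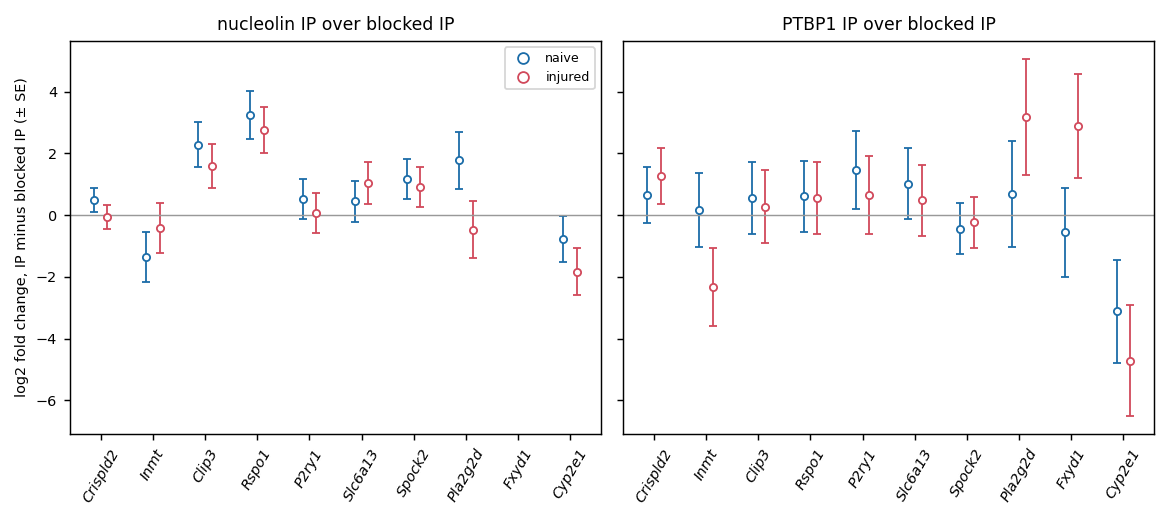
Fitted log2 fold change, IP minus blocked IP, with its standard error for each transcript with nucleolin (left) and PTBP1 (right); blue is naive and red injured nerve, and open symbols mark that no value passed the adjusted threshold by edgeR. Rspo1 and Clip3 lie highest on the nucleolin side in naive nerve, Cyp2e1 is the lowest with PTBP1, and Fxyd1 is not drawn for nucleolin.

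Whether the crush changed the share held by the antibody was tested as an interaction. By edgeR no member was called with nucleolin (adjusted p = 1 for all 9) or with PTBP1 (adjusted p from 0.796 to 1), and no transcript of either table was. Of the most abundant transcripts, 0 had an unadjusted p under 0.05. The Slc6a13 retained-intron transcript ENSMUST00000142021 did with PTBP1 (edgeR, unadjusted p = 0.00903, adjusted p = 0.541), with 485 and 558 counts in single libraries of injured blocked IP and naive IP. DESeq2 called 1 of 11 member transcripts lower in the PTBP1 interaction, where it called 255 of 14303 transcripts lower. With the repeat as a block edgeR called 0 transcripts in both interactions. For Rspo1 the nucleolin interaction was -0.48 ± 0.99 on the log2 scale (SE) and for Clip3 -0.69 ± 0.98. For Crispld2, the most precisely measured, it was -0.55 ± 0.56. With PTBP1 the smallest standard error of the 10 was 1.16 (Spock2), so a change of several fold was not detectable there.

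The other genes of each family, from lists of known members, show how far the fall reached in input; counts here are of genes other than the 10, by edgeR's test over all transcripts, and 13.4% of all transcripts tested fell and 14.5% rose. Around Rspo1, 10 of 26 measured R-spondin and Wnt genes fell and 2 rose. The Wnt antagonist Sfrp5 (log2 fold change -2.75) and the ligand Wnt2b (-2.38) fell most, while Rspo3, another R-spondin, rose by 1.66 and the antagonist Sfrp2 by 0.87. Of 4 other genes of the SPARC family of Spock2, 3 fell, Sparc the most (-2.99), and Fstl1 rose by 0.80. Of 4 other genes of the CAP family of Crispld2, Pi15 alone was called, and it rose by 2.04. On a list of phospholipases A2 and their receptor that is wider than the secreted type of Pla2g2d, none of 4 other genes fell, and Pla2g7 (1.91) and Pla2g15 (1.14) rose.

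Among purine receptors and ectonucleotidases, the family of P2ry1, 2 of 16 fell and 2 rose: the receptor P2ry2 fell by 3.07 and the phosphatase Alpl by 2.11, and the receptors P2rx4 and P2ry6 rose by 2.57 and 1.11. On the list of GABA and taurine transport and metabolism 7 of 8 other genes fell, among them Slc6a20a (-3.73), a transporter of imino acids rather than of GABA, and the GABA transaminase Abat (-2.91), and the taurine transporter Slc6a6 rose by 1.13. Among FXYD proteins and sodium pump subunits 6 of 10 fell, including Fxyd3 (-3.70) and Fxyd2 (-3.11), and Fxyd5 rose by 3.07. Of 20 other genes of microsomal oxidation and conjugation, the list of Cyp2e1, 16 fell, led by Gsta4 (-3.87) and Cyp2f2 (-3.22), and Cyb5r3 rose by 1.13. Around Clip3 the related Clip4 fell by 0.78 and the microtubule end-binding gene Mapre1 rose by 0.60, of 7 measured. Of 10 other genes of small-molecule methylation, the list of Inmt, 1 fell and 0 rose, with a median log2 fold change of -0.30.

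The transcripts were grouped under the name nerve stromal transcripts, and marker lists of the nerve's cells were set beside them in input. Perineurial markers fell in 17 of 18 measured genes, with a median log2 fold change of -2.09; Perp (-3.80) and Moxd1 (-3.42) fell most, the barrier genes Slc2a1 (-1.81) and Cldn1 (-2.24) fell too, and their summed level went from between 4270 and 5910 CPM in naive to between 1511 and 1772 CPM in injured libraries. Epineurial fibroblast markers fell in 10 of 17 (Mfap5 -4.07, Pcolce2 -3.66) and rose in 1, a transcript of Sema3c (1.09), and Pi16, a defining marker, was near the lower end of detection (1.47 ± 0.726 CPM in naive input). Endoneurial fibroblast markers fell in 8 of 15 (Ccl11 -2.79, Dcn -2.62) and rose in 2 (Spp1 2.81, Cdkn2a 2.68). Myelinating Schwann cell markers fell in 10 of 13 (Dhh -4.19, Ugt8a -3.71) and a transcript of Mbp rose by 0.98.

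Nonmyelinating Schwann cell markers fell in 6 of 14 and rose in 2 (S100b fell by 3.43 and Ncam1 rose by 1.90). Endothelial markers fell in 1 of 12 and rose in 3, with a median of 0.06, and pericyte and smooth muscle markers fell in 3 of 10 and rose in 1. Markers of fat, muscle and blood fell in nearly every measured gene. Adipocyte markers fell in 7 of 7 with a median of -4.54 (Car3 -4.85, Cfd -4.82, and a sum of 5390 to 6364 CPM against 959 to 1056 CPM). Skeletal muscle markers fell in 4 of 5 (623.6 to 1066 against 24.1 to 109 CPM). Red blood cell markers fell in 4 of 4 (507.5 to 711 against 83.7 to 116 CPM). Macrophage markers rose in 10 of 14 and fell in none, with Arg1 at 6.77. Most markers of fat, muscle, blood, myelin and the perineurial barrier, and 10 of 17 epineurial and 8 of 15 endoneurial fibroblast markers, moved in the same direction as the 10 transcripts in the same libraries, and their part in the falls of the 10 was not tested.

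**Figure D4:**
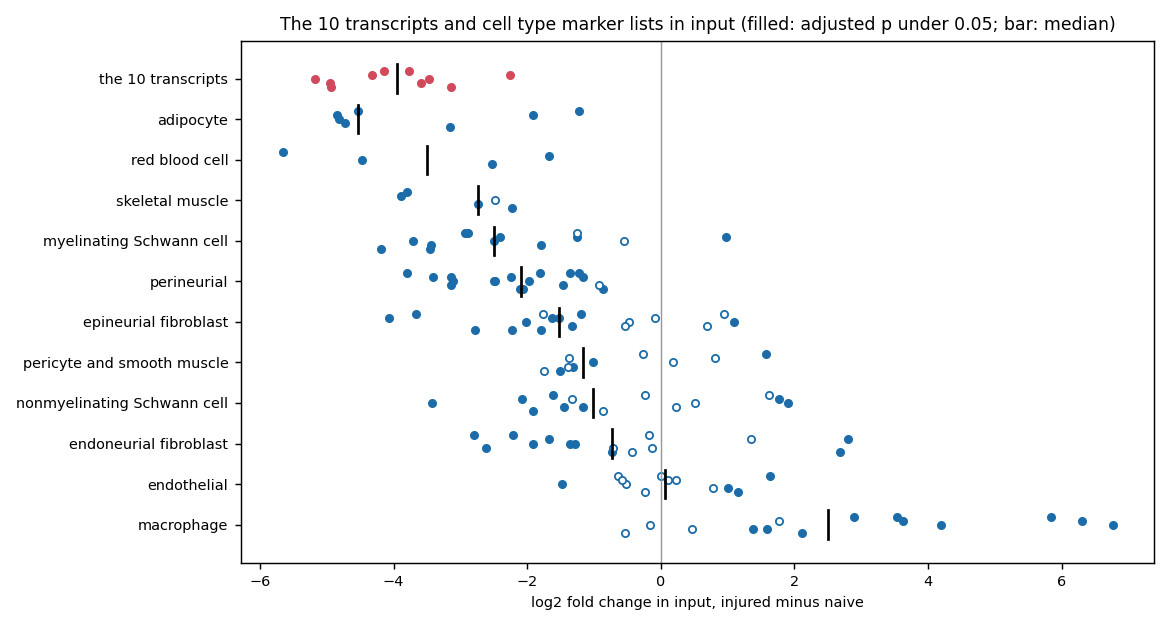
Log2 fold change in input, injured minus naive (horizontal axis), of the 10 transcripts (red) and of the measured genes of each marker list (blue), 1 point per gene; filled points passed an adjusted p of 0.05 by edgeR, bars are medians, and the marker lists are ordered by median. The 10 transcripts lie between -5.18 and -2.25, a range that also holds points of every marker list except the pericyte, endothelial and macrophage lists, while the macrophage points reach 6.77 (Arg1).

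Finally, the transcripts whose levels followed each member most closely were found over the 10 group means, as the root mean square difference of log2 CPM after centring, among 10116 transcripts tested in all table sets. These are descriptions of 10 points that share libraries and lysates. Crispld2 was followed by Shisa3 (0.36), Vwa1 (0.36) and the matrix proteoglycan Fmod (0.47), where the median transcript differed by 2.18. Clip3 was closest to the fatty acid elongases Elovl6 (0.55) and Elovl7 (0.61) and the matrix gene Ogn (0.59), P2ry1 to a retained-intron transcript of Lss (0.34), Scrn1 (0.40) and Elovl7 (0.41), and Slc6a13 to Spire2 (0.34), Cped1 (0.52) and Elovl6 (0.55). Spock2 was closest to the matrix genes Vit (0.48) and Prelp (0.48) and to Tspan17 (0.49).

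Inmt was followed by Ctxn3 (0.55), the isoprenoid enzyme Fdps (0.57) and the myelin lipid enzyme Ugt8a (0.59), and Pla2g2d by Slco1a4 (0.51), Prrg3 (0.61) and a processed transcript of Usp50 (0.66). Rspo1 had no close neighbour: Bmp7 (0.93), Elovl6 (0.94) and Ildr2 (0.98) came nearest outside the 10, and Clip3 (0.77) within them. Cyp2e1 was closest to 3 genes of fat cells, Adipoq (0.53), Retn (0.57) and Thrsp (0.57), and its nearest member, Slc6a13, stood at 1.30. Adipoq itself, the adipocyte hormone adiponectin, went from 241 ± 94.5 CPM in naive to 10.1 ± 6.74 CPM in injured input (SD, n = 3). A single stromal origin cannot be read from these bulk libraries. Fxyd1 was not placed, since its injured nucleolin values were not analysed here.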

How the data were processed

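The values are raw counts of reads per Ensembl transcript in tables deposited by the authors, from CASAVA 1.8.2 and edgeR on mm10 and GRCm38 per the submitters' processing notes, with aligner, counting tool and strand not given in the sources used here. A further 114 columns of per-sample values were not used. Library totals ran from 7536033 to 22919174 counts. The PTBP1 and nucleolin tables hold only transcripts that reached 5 counts in each of the 3 libraries of some group. Coordinates came from GENCODE M21 (97.8% of identifiers matched), promoters from RefSeq. edgeR 4.0.16 in R 4.3.3 (quasi-likelihood, TMM, filterByExpr, Benjamini-Hochberg at 0.05, two-sided) was fitted to 6 inputs, and to the 12 libraries of each antibody, with 11862 transcripts shared by both nucleolin tables. Fitted log2 fold changes have standard errors; DESeq2 1.42.0 was an alternative. The pairing check asked whether correlations of deviations between libraries of the same repeat number all passed 0.1 (0.332, 0.119 and 0.555 in nucleolin IP). No label says what a number shares between naive and injured nerves. The members and lists were chosen with earlier results of these data known. Named were the members, up to 2 rising and 2 falling genes per list by size among those called, defining markers, and the 3 transcripts nearest each member.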

Additional observations from a re-analysis of the deposited data

How the results depend on the processing

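The most abundant transcript of every member kept a negative change after crush in all 576 values computed under the alternatives in the 5 kinds of library. Those values include the contrasts that chose the members, where the sign followed from the choice. All are overlapping refits of the same libraries and are given as a description. In input all 10 were called lower under each alternative, while the number of transcripts called fell from 3924 (2037 higher, 1887 lower) to 2327 with library totals in place of TMM (846 higher, 1481 lower), and to 3270 with totals from which Yam1 was left out, an alternative chosen after seeing the data. Leaving out single libraries gave 2514 to 3821 calls in input, 2 to 27 in nucleolin IP with 1 to 3 members, 13 to 419 in blocked nucleolin IP with 0 to 5 members, 0 to 5 in PTBP1 IP with 0 members, and 0 to 21 in blocked PTBP1 IP with 0 to 1; for IP over blocked IP it gave 0 to 320 (nucleolin, naive), 0 to 15 (nucleolin, injured), 0 to 0 (PTBP1, naive) and 0 to 4 (PTBP1, injured), and for the interactions 0 to 5 (nucleolin) and 0 to 0 (PTBP1).

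With the replicate block, calls moved from 98 to 334 in nucleolin IP (8 members, Cyp2e1 added), from 184 to 475 in blocked nucleolin IP (7 members, P2ry1 and Rspo1 added), from 1 to 6 in PTBP1 IP and from 4 to 43 in blocked PTBP1 IP, and the block changed no other call of a member. Every pair passed the pairing check only in nucleolin IP and in injured PTBP1 IP against blocked IP. DESeq2 tested 11719 transcripts with nucleolin and 14303 with PTBP1. Members given with its calls are counted by their most abundant transcripts. In both directions together it called 738 (nucleolin IP), 1614 (blocked, 9 members), 717 (PTBP1 IP, 6 members), 2517 (blocked PTBP1, 6 members), 762 and 322 (nucleolin over blocked, naive and injured), 1134 and 942 (PTBP1 over blocked), and 20 and 433 (interactions, nucleolin and PTBP1). Fits to the 6 libraries compared called 495 in nucleolin IP, 0 in blocked nucleolin IP with 0 members, 12 in PTBP1 IP with 2 members and 0 in blocked PTBP1 IP. Library totals called 39, and counts summed per gene 23, in naive nucleolin over blocked IP; counts summed per gene called 4 in PTBP1 IP. The cause was not tested. Low injured counts in Slc6a13, Pla2g2d and Fxyd1 limit the size of their falls.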
